A study of Medicago truncatula with 24 samples.

Results

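The 96 small RNAs described here are 20 or 21 nt long and lie outside 23 conserved plant miRNA families by the rule given here, although a few of them still resemble a family. They are 96 of the 427 sequences counted in roots and shoots of the legume Medicago truncatula. They were selected on measured values, namely at least 100 counts summed over all 24 libraries. They also had to lie more than 3 mismatches from each conserved family and not to pair with a family sequence as its opposite arm. Of 290 listed sequences of that length 154 reached the minimum, and 42 of these belonged to a family and 16 were an opposite arm. The members are called sR1 to sR96 by falling total count, since no miRNA names were used for them here. Just inside the minimum stood sR96 with 101 counts and sR95 with 104, and just outside it 3 sequences with 95, 81 and 72.

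Plants of cra2 and of A17 were compared. cra2 is a mutant affected in the receptor kinase CRA2, whose allele is not given in the labels, and A17 is the control genotype. Root systems were split at 3 weeks of age after growth on 0.5 mM KNO3 under 16 h of light. For the last 4 days the local compartment received 0.05 mM KNO3 (deficit) or 10 mM NH4NO3 (satiety), while the other, distant compartment had no mineral nitrogen in any group. Deficit and satiety thus differ in the form of nitrogen as well as its amount, and these cannot be told apart here. The groups are cra2 deficit, cra2 satiety, A17 deficit and A17 satiety, each with 3 shoot and 3 root libraries harvested at 4 weeks of age. The series design names the distant roots as the tissue sampled, and the labels of single libraries give only the organ. Whether the replicates come from different plants is not stated, and a p-value therefore covers the spread among the libraries given, whose source may be technical. Small RNA counts hold no CRA2 transcript, so the genotype labels could not be checked.

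As background, plant miRNAs and most small interfering RNAs that silence transcripts are cut by Dicer-like enzymes into duplexes with overhanging 3′ ends. One strand is usually kept by an Argonaute protein, and a first base U favours loading into AGO1. Conserved families are shared between plant species, some more widely than others. Each plant lineage also makes many small RNAs of its own, which are often less abundant. CRA2 perceives CEP peptides, which roots make when nitrogen is scarce, and acts in part through the shoot. The split root design asks which small RNAs in the shoot or in distant roots respond to nitrogen supplied elsewhere.

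The sequences below carry the results that follow. They are read from the deposited tables, 5′ to 3′, with T for U, and capitals mark the seed (bases 2 to 8). First come the members with the most counts in roots or shoots.
sR1: tTGTCTTAcccattcctccca
sR2: tCCAATGTaatctaggtctac
sR3: tGGGAGAAaagatagaatgtg
sR4: tACATGTCgctctcacctgaa
sR5: tACTTGGTgaattgttggatc
sR6: gCTCTCTAgacttctgtcatc
sR7: tTTGTATTgttgacatggctt
sR8: gGAATGTTggctggctcgagg

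The following members separated organs or genotypes.
sR32: aCAAAGACattggaaggctta
sR34: tCTAATTAttcaccaagtaaa
sR38: gGAAAACAtgaatgtcgggtg
sR78: cTTTTCACtttcgaacgggtg
sR14: aGCTGCTGactcgttggttca
sR69: tGTAGAAAaaacaaagggcaa
sR52: tAGAGATTtgtttaacagcca
sR31: cGAGCCGAatcaatatcactc
sR42: tCAAGTTCtcataattcaaaa
sR73: aCAAGTAGaaccttttttctg

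The last set changed with the local nitrogen supply in roots of both genotypes.
sR12: tTGAATTAtgagaacttgaag
sR18: tTTTGAATtatgagaacttga
sR15: tTTTCCAAttctaagtctatc
sR29: cCAGTTCTgcgttcatgtccc
sR71: tGATAGTGtcaactagtacag
sR40: tAATGGATtatgtaagattaa

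By length 94 members had 21 nt and 2 had 20 nt. The first base was T in 57 members (59.4%), which held 75.6% of the members' counts, A in 18, C in 11 and G in 10. Among the 58 family and opposite-arm sequences chosen by the same length and count, 55.2% began with T. Members were poorer in G and C, with a median GC content of 38.1% against 52.4% in the family and opposite-arm sequences. The nearest conserved family lay 5 to 11 mismatches away, with 2 members at 5 mismatches (sR31 and sR55), 4 at 6 and 90 at 7 or more. A few members kept by the rule still resemble family sequences. With gaps allowed 5 members lay within 3 edits of a family sequence, of a listed opposite arm or of full pairing with a family sequence. sR55 and sR89 lay 2 and 3 edits from miR169. sR6 and sR77 lay 2 edits from full pairing with miR157, so that they resemble its opposite arm. sR8 differs at 1 position from the listed opposite arm of miR166. Without gaps sR31 differs at 3 positions, over a shifted overlap, from a listed miR171 sequence. sR81 carries the seed of miR171 but is 9 mismatches from its nearest family.

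Several members belong together by sequence. There were 8 pairs in which both members could form a duplex with 2-nt overhangs: sR5 with sR34, sR11 with sR29, sR12 with sR42, sR15 with sR47, sR18 with sR84, sR22 with sR48, sR25 with sR27, and sR62 with sR96. sR12 and sR18 overlap as shifted copies of the same stretch, as do their partners sR42 and sR84, so these 4 are not independent. sR66 is sR2 cut to 20 nt. sR38 and sR68 differ by 3 mismatches, and both can pair with the same listed 22-nt sequence.

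The members were a small part of each library. They summed to 1311129 of 52312029 counts (2.51%), with 101 to 241555 counts per member and a median of 1435. The 10 members with the most counts held 73.0% of the members' total, while 41 members had fewer than 1000 counts. Library totals were 1494211 to 3919811 counts in shoots and 768323 to 1661422 in roots. A single sequence of the conserved families took 73.2 to 84.9% of each shoot library and 67.1 to 77.2% of each root library. All levels here are relative to these totals, in CPM, that is, counts relative to the scaled library size of the fit. Median SDs of log2 CPM over the members tested were 0.61 in cra2 deficit shoots and 0.24 to 0.35 in the other groups.

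As a share of all counts the members took 2.38 ± 0.51% in shoots and 3.04 ± 0.30% in roots (SD, n = 12 libraries each, ranges 1.80 to 3.57% and 2.59 to 3.51%). In cra2 shoots the share was 2.97 ± 0.54% under deficit and 2.15 ± 0.16% under satiety (SD, n = 3 each), with no overlap between the libraries. The exact two-sided permutation p of that difference was 0.1, the smallest that 3 against 3 libraries allow, and 0.8 after Benjamini-Hochberg adjustment over 8 such comparisons. The other 7 differences of share between groups had exact permutation p of 0.3 to 1.

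By the mean share over the 12 libraries of an organ, sR1 led in both organs. It took 0.504 ± 0.213% of the counts in shoots and 0.423 ± 0.132% in roots. After it came sR2, sR5, sR6, sR3 and sR4 in shoots, and sR3, sR4, sR2, sR8 and sR7 in roots. sR5 and sR6 were thus among the leading members of the shoot alone. In A17 deficit roots sR3 and sR2 averaged 4332 and 3406 CPM, above sR1 at 2885 CPM. In each other root group sR1 had the highest mean.

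Most members differed between shoot and root. Of the 91 members tested over all 24 libraries (edgeR quasi-likelihood test, Benjamini-Hochberg adjusted p under 0.05 over 200 sequences), 27 were higher and 38 were lower in shoots. Among all 200 sequences 33.5% were called higher and 34% lower, so the members' shares of 27 and 38 among 91 lie near the background. The median log2 of shoot over root was -0.28 for the members tested, -0.05 for all sequences and 0.39 for family and opposite-arm sequences. With library totals in place of TMM scaling 14 members were called higher and 60 lower. That scaling moved the median of all sequences as well, as given below. Without 1 library the count called stayed between 62 and 67.

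**Figure D1:**
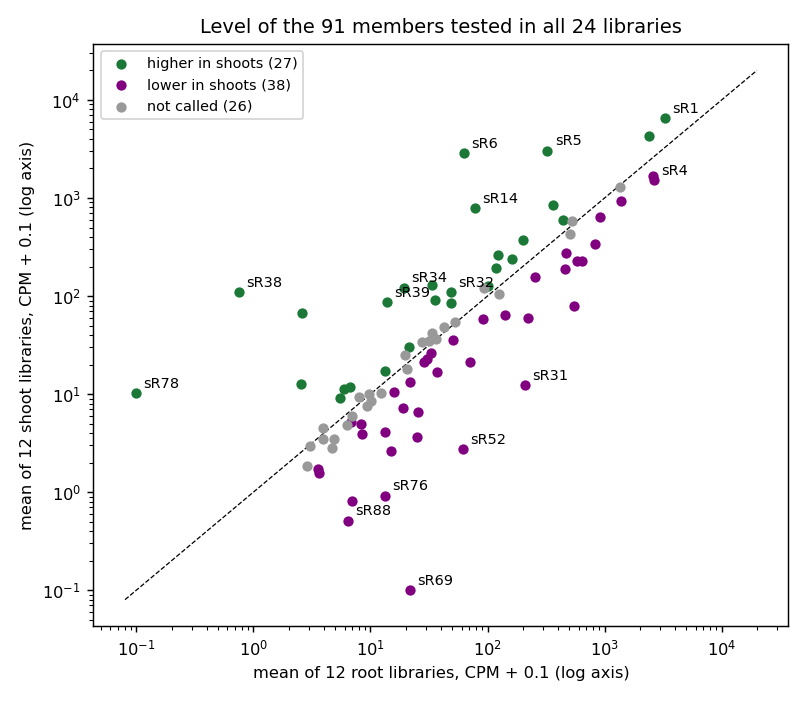
Mean level of each of the 91 members tested in shoots (vertical axis) and roots (horizontal axis), in CPM + 0.1 on log axes, n = 12 libraries per organ, with the dashed line marking equal levels. Points far above the line are sR38, sR78, sR6, sR5 and sR14, and points far below it are sR69, sR52, sR31, sR76 and sR88.

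A pair of members had counts in 1 organ alone. sR78 had 272 counts over the 12 shoot libraries, where each held at least 1, and 0 in the 12 root libraries. Against a floor of 3 counts over all roots its share of the library totals was at least 37.9-fold higher in shoots. sR69 had 0 counts over the 12 shoot libraries and 401 over the 12 root libraries, present in each. By the same floor it was at least 319.6-fold lower in shoots. These bounds cover counting error only, since reads carry no stated molecular tags.

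Among the other shoot members, sR38 had 64.1, 105.9 and 168.9 CPM (lowest, median, highest of 12) in shoots, against 0, 0.578 and 2.14 CPM in roots. No root library came near the shoot libraries. The difference was 7.40 ± 0.28 on the log2 scale (SE). sR38 passed the minimum count only through shoots, where it was high, so its p-value is no support and is not given. sR6, which resembles an opposite arm of miR157, had 1497, 2748 and 5459 CPM in shoots and 20.6, 49.8 and 173.8 CPM in roots, a log2 difference of 5.51 ± 0.31 (edgeR adjusted p = 1.8e-13). Its highest root value came from replicate 3 of cra2 satiety. sR14 had 622, 780 and 1007 CPM in shoots and 8.99, 53.3 and 344 CPM in roots, with replicate 3 of cra2 deficit highest among roots (log2 3.74 ± 0.25, edgeR adjusted p = 3.0e-12). sR5 had 1624, 2388 and 5688 CPM in shoots and 35.6, 303 and 727 CPM in roots (log2 3.80 ± 0.18, edgeR adjusted p = 3.5e-15). sR39 was also higher, by 2.58 ± 0.27 on the log2 scale, without overlap of the libraries.

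Root members were less abundant than sR5 or sR6 at their peak. sR31 differs at 3 positions, over a shifted overlap, from a listed miR171 sequence, so its place outside that family is uncertain. It had 4.10, 12.5 and 18.2 CPM in shoots against 131.7, 222.8 and 260.8 CPM in roots, a log2 difference of -4.11 ± 0.19 (edgeR adjusted p = 3.5e-15). sR52 had 0, 0.396 and 13.5 CPM in shoots, where 7 of 12 libraries held any count. In roots it had 23.996, 54.3 and 134.3 CPM (log2 -5.56 ± 0.48). The rarer sR88 and sR76 were lower in shoots by log2 differences of -4.25 ± 0.42 and -3.99 ± 0.28. In the organ test sR52, sR88 and sR76 passed the minimum count only through roots, where they were high, so their calls are no support. All of these organ calls held without each of the 24 libraries in turn, which adds no support for sR38, sR52, sR88 and sR76.

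In roots of cra2, sR5, its duplex partner sR34, and sR32, which pairs with neither, stood far below A17. Under satiety sR5 had 45.3, 95.3 and 64.5 CPM in cra2 roots, against 650, 563 and 752 CPM in A17 roots. Under deficit it had 142.4, 202.9 and 96.0 CPM in cra2 roots, against 736, 783 and 860 CPM in A17 roots. Every cra2 root library was below every A17 root library. The log2 difference was -3.26 ± 0.29 under satiety (SE, edgeR adjusted p = 5.2e-08) and -2.43 ± 0.28 under deficit (edgeR adjusted p = 2.0e-06).

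sR32 had 9.71, 19.5 and 4.03 CPM in cra2 satiety roots, against 103.0, 121.6 and 162.6 CPM in A17 satiety roots. In deficit roots it had 14.7, 19.6 and 7.45 CPM in cra2 and 91.3, 72.9 and 125.4 CPM in A17. Again the genotypes did not overlap. The log2 differences were -3.50 ± 0.42 and -2.79 ± 0.40 (edgeR adjusted p = 2.2e-06 and 2.5e-05). sR34, the rarer strand of the sR5 duplex, averaged 7.20 ± 4.32 CPM in cra2 and 45.0 ± 7.18 CPM in A17 under satiety, and 9.22 ± 3.79 CPM in cra2 and 35.9 ± 13.6 CPM in A17 under deficit (SD, n = 3 each). Its log2 differences were -2.55 ± 0.42 and -1.96 ± 0.40 (edgeR adjusted p = 8.3e-05 and 0.00065). For these 3 members both calls held in all 9 alternative settings and without each of the 6 libraries in turn.

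**Figure D2:**
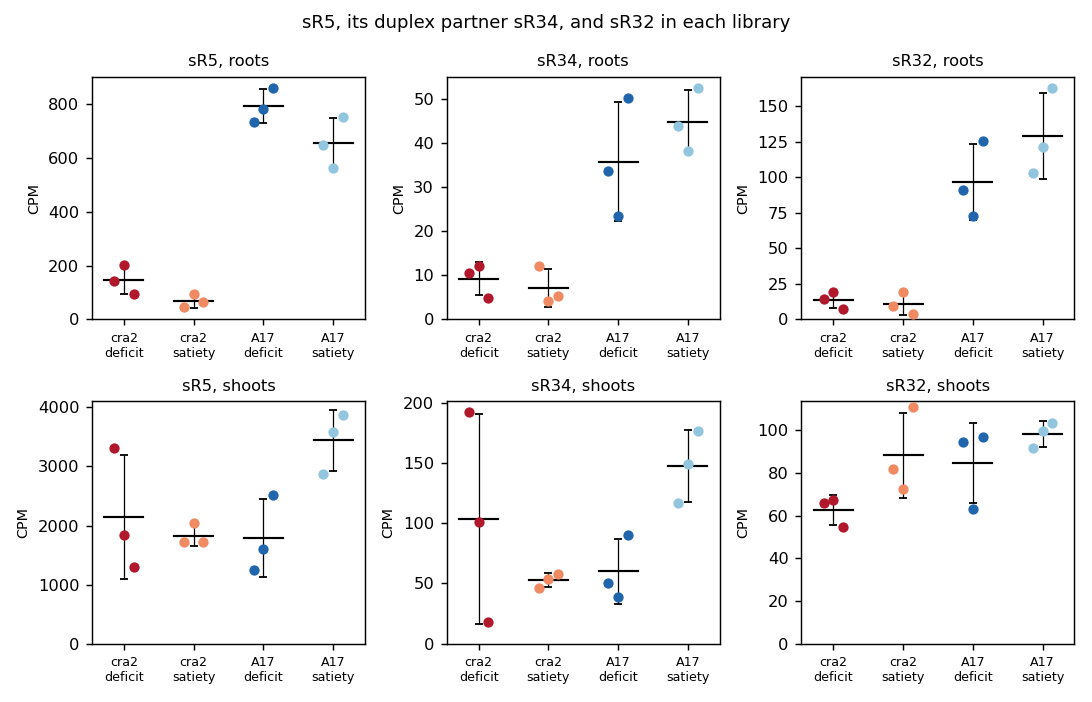
Level of sR5, sR34 and sR32 (CPM, linear axes from 0) in each library of the 4 groups, roots above and shoots below, with the mean (bar) and SD (whiskers, n = 3). In roots all 6 cra2 libraries lie below all 6 A17 libraries for each of the 3 members, and in shoots the cra2 and A17 libraries overlap over the 2 nitrogen conditions.

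In shoots none of the 3 was called between genotypes. Under deficit sR5 had 3308, 1833 and 1296 CPM in cra2 shoots and 1248, 1602 and 2518 CPM in A17 shoots, which overlap. Under satiety it had 1727, 2039 and 1728 CPM in cra2 shoots and 2874, 3589 and 3869 CPM in A17 shoots, a log2 difference of -0.91 ± 0.33. sR34 likewise had 46.2, 53.6 and 57.7 CPM in cra2 and 116.5, 149.5 and 176.3 CPM in A17 under satiety (log2 -1.49 ± 0.58). Both were without overlap. With the 3 cra2 deficit shoot libraries left out of the fit, sR5 and sR34 were called lower in cra2 satiety shoots (edgeR adjusted p = 0.0089 and 0.00095). That fit was added after seeing the data, and the main fit gave edgeR adjusted p of 0.15 and 0.17. sR32 had 54.5 to 110.7 CPM over the 6 cra2 shoot libraries and 63.2 to 103.4 CPM over the 6 A17 shoot libraries. The difference between genotypes in the shoot-over-root contrast was tested directly, as cra2 minus A17. It was 2.86 ± 0.37 for sR32, 2.53 ± 0.33 for sR5 and 1.93 ± 0.58 for sR34 on the log2 scale (edgeR adjusted p = 6.3e-06, 6.3e-06 and 0.035). The first 2 calls held in all 8 alternatives and without each of 24 libraries. That of sR34 held in 6 of 8 alternatives and in 11 of the 24 fits without 1 library.

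In the other direction this contrast was more negative in cra2 for sR72 (log2 -1.95 ± 0.58), sR19 (-0.90 ± 0.22) and sR26 (-0.87 ± 0.23), with edgeR adjusted p of 0.010 to 0.032. For sR19 and sR26, roots of cra2 averaged higher and shoots of cra2 lower than those of A17. sR19 averaged 164.2 ± 33.9 CPM in cra2 shoots and 212.2 ± 48.9 CPM in A17 shoots, and 545.9 ± 76.2 CPM in cra2 roots and 378.0 ± 89.0 CPM in A17 roots (SD, n = 6 each). In total 3 members were higher and 4 lower, of 91 tested, where 6% and 2.5% of all 200 sequences were called higher and lower. Scaling moved this split. It was 3 higher and 7 lower with RLE, 2 and 13 with upper-quartile scaling, 3 and 0 with library totals, and 3 and 11 with DESeq2. Without replicate 1 of A17 satiety shoots 4 members were called, and without replicate 3 of cra2 deficit shoots 11.

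Under satiety 6 of 78 members tested were higher and 7 lower in cra2 roots than in A17 roots. Of all 168 sequences 8.93% were higher and 17.3% lower. The members' median log2 was 0.21, that of all sequences 0.14, and that of family and opposite-arm sequences -0.63. Other scalings gave 8 higher and 5 lower (RLE, and DESeq2 as well), 10 and 5 (upper quartile) and 2 and 6 (library totals). Under deficit 14 were higher and 8 lower, against 11.9% and 20.8% of all sequences. The median log2 was 0.21 for members, 0.04 for all sequences and -0.61 for families. Upper-quartile scaling gave 5 higher and 13 lower, library totals gave 17 and 4, and without replicate 1 of cra2 deficit roots 11 members were called in all.

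Of the 13 members called under satiety and the 22 called under deficit, 8 were shared (61.5% and 36.4% of each list), all in the same direction. The number shared over all 168 sequences was not computed. sR7, sR15, sR37 and sR69 were higher in cra2 roots in both, and sR5, sR32, sR34 and sR42 were lower. sR69, the member without counts in shoots, had 45.3, 57.4 and 51.0 CPM in cra2 satiety roots and 19.9, 13.7 and 22.1 CPM in A17 satiety roots. Its log2 difference was 1.46 ± 0.31 under satiety and 1.06 ± 0.32 under deficit (edgeR adjusted p = 0.00096 and 0.016). sR7 had 2470.5, 2178 and 2271 CPM in cra2 deficit roots and 1235, 1218 and 1238 CPM in A17 deficit roots, a log2 difference of 0.91 ± 0.18 (edgeR adjusted p = 0.00061). sR42, the partner strand of sR12, was lower by -1.62 ± 0.30 under satiety and -0.93 ± 0.30 under deficit, while sR12 itself stood at -0.55 ± 0.24 and -0.59 ± 0.24 without a call. Under satiety the calls of sR7 and sR15 held in 3 of 6 fits without 1 library each, that of sR37 in 4, and those of sR69 and sR42 in all 6. Under deficit that of sR42 held in 2 of 6, that of sR69 in 5, and those of sR7, sR15 and sR37 in all 6.

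Further members were called under a single nitrogen condition. Under deficit sR73 had 11.5, 17.1 and 24.01 CPM in cra2 roots and 3.75, 3.92 and 3.23 CPM in A17 roots, a log2 difference of 2.26 ± 0.46. In roots it had 11, 21 and 29 counts in the cra2 deficit libraries and 2 to 8 in the others. It thus passed the minimum count only through the group where it was high, so its p-value is no support. sR72, sR86 and sR61 were higher in cra2 roots by 1.43, 1.26 and 1.06 on the log2 scale, and sR55 and sR3 were lower by -1.07 and -0.59. Under satiety sR63 was higher by 1.33 ± 0.44 and sR1 by 0.64 ± 0.18, and sR81 and sR17 were lower by -1.45 ± 0.53 and -0.87 ± 0.20. Without 1 library each, the calls of sR61 and sR17 held in all 6 fits and that of sR1 in 5 of 6. Those of sR72, sR86, sR3 and sR63 held in 3 of 6, and those of sR55 and sR81 in 2 of 6. The call of sR81 held in 2 of 8 alternatives. Whether these differences depend on nitrogen was tested below and gave no call.

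In roots members differed between local deficit and satiety in both genotypes. In cra2 roots 11 of 78 members tested were higher and 8 lower under deficit than under satiety, where 13.7% and 14.9% of all 168 sequences were. In A17 roots 7 were higher and 12 lower, where 14.9% and 16.1% of all sequences were. The members' shares called are thus near these background shares or below them. In A17 roots 19 of 78 members (24.4%) and 25 of 52 family and opposite-arm sequences (48.1%) were called. In cra2 roots the numbers were 19 of 78 and 16 of 52 (30.8%).

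The split by direction depended on scaling. Shares over all sequences under other scalings are not given here, so the shifts are not shown to be particular to the members. Upper-quartile scaling gave 8 higher and 9 lower in cra2 roots and 15 and 3 in A17 roots. Library totals gave 12 and 1 in cra2 roots and 6 and 5 in A17 roots. The number called also depended on single libraries. In cra2 roots it was 8 without replicate 2 of deficit, 11 without replicate 2 of satiety and 8 without replicate 3 of satiety. In A17 roots it was 5 and 9 without replicates 1 and 2 of deficit, and 10, 10 and 2 without replicates 1, 2 and 3 of satiety.

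The same 9 members were called in both genotypes, 47.4% of each list of 19, and all in the same direction. These contrasts share no library but come from 1 fit with a common estimate of the spread. No such overlap was computed over all 168 sequences, so it is not set against a background. Among them sR1, sR4, sR15 and sR29 were lower under deficit, and sR12, sR18, sR40 and sR71 were higher.

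sR4 had 1988, 2457 and 2706 CPM in cra2 deficit roots and 4216, 4716 and 5863 CPM in cra2 satiety roots, a log2 difference of -1.05 ± 0.18 (edgeR adjusted p = 0.00029). In A17 roots it had 2259, 2653 and 2476 CPM under deficit and 3783, 4146 and 3885 CPM under satiety (log2 -0.68 ± 0.18, edgeR adjusted p = 0.0090). Deficit and satiety libraries did not overlap in either genotype. sR1 had 4142, 2823 and 3202 CPM under deficit and 6211, 7235 and 6417 CPM under satiety in cra2 roots, with log2 differences of -0.97 ± 0.18 in cra2 and -0.56 ± 0.18 in A17 (edgeR adjusted p = 0.00091 and 0.023). In cra2 roots both calls held without each of the 6 libraries. In A17 roots that of sR4 held in 3 of 6 such fits, and that of sR1 in 1 of 6 and in 6 of 9 alternatives.

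sR15 and sR29 were lower by -0.70 ± 0.22 and -1.12 ± 0.33 in cra2 roots and by -1.03 ± 0.22 and -1.39 ± 0.33 in A17 roots. sR29 is the rarer strand of its duplex, and its partner sR11 stood at -0.15 ± 0.18 in cra2 and -0.08 ± 0.18 in A17, without a call. Whether the strands of this duplex differ in response was not tested. Without 1 library each, the call of sR29 held in 2 of 6 fits in cra2 and in 4 of 6 in A17. That of sR15 held in 0 of 6 in cra2 and in 6 of 6 in A17.

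**Figure D3:**
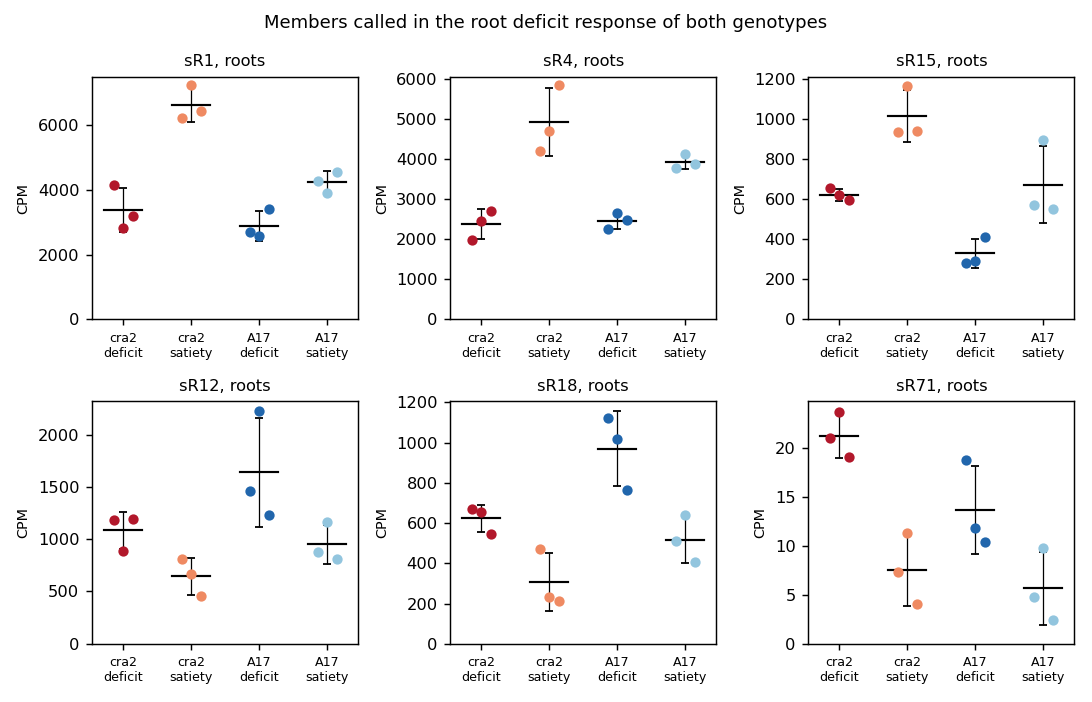
Root levels (CPM, linear axes from 0) of 6 of the 9 members called in both genotypes, per library, with mean (bar) and SD (whiskers, n = 3). sR1, sR4 and sR15 lie lower under deficit in cra2 and in A17, and sR12, sR18 and sR71 lie higher.

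Of those that were higher, sR12 and sR18 are the shifted copies of the same stretch. sR18 had 668, 657 and 546 CPM under deficit and 473, 233 and 214 CPM under satiety in cra2 roots, and 1125, 1019.9 and 763 CPM under deficit and 509, 641 and 405 CPM under satiety in A17 roots. The log2 differences were 1.02 ± 0.27 and 0.90 ± 0.27 (edgeR adjusted p = 0.0088 and 0.017). sR12 followed with 0.75 ± 0.24 and 0.79 ± 0.24. sR71 had 20.9, 23.6 and 19.0 CPM under deficit and 7.28, 11.3 and 4.03 CPM under satiety in cra2 roots (log2 1.45 ± 0.46), and its value in A17 roots was 1.28 ± 0.45 (edgeR adjusted p = 0.021 and 0.035). sR40 was higher by 1.25 ± 0.36 in cra2 and by 0.95 ± 0.36 in A17, where its deficit and satiety libraries overlapped. Without 1 library each, the calls in cra2 roots held in 4 of 6 fits for sR18 and sR40, in 3 for sR71 and in 2 for sR12. In A17 roots they held in 3 of 6 for sR18 and sR12, in 2 for sR71 and in 1 for sR40.

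**Figure D4:**
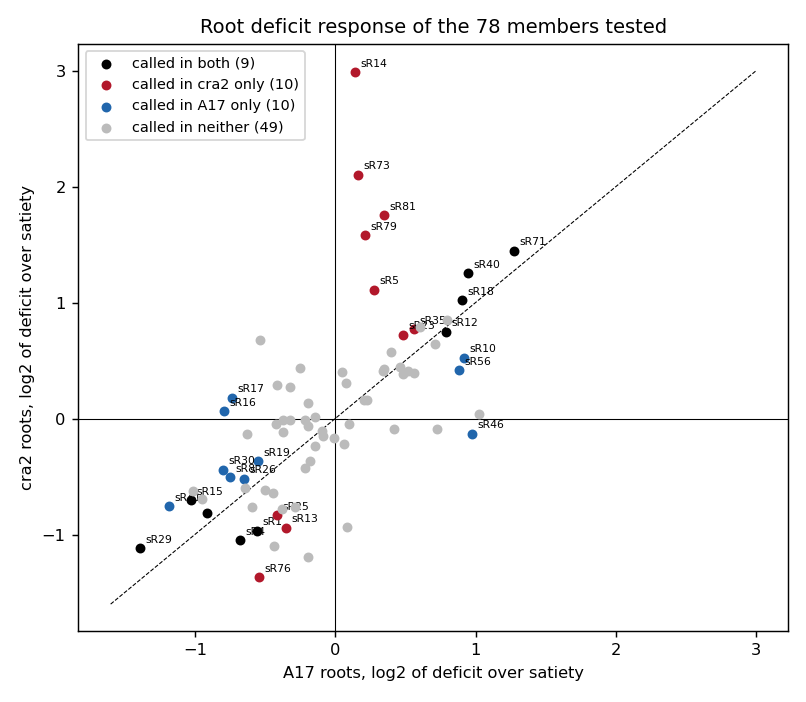
Log2 of deficit over satiety in cra2 roots (vertical axis) against A17 roots (horizontal axis) for the 78 members tested, with the dashed line marking equal responses. The 9 members called in both genotypes lie in the quadrants of equal sign, and sR14, sR73, sR81 and sR79 lie well above the line.

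Several members were called in cra2 roots and not in A17 roots. sR14, a member mainly of shoots, had 179, 66.0 and 467 CPM in cra2 deficit roots and 51.8, 22.6 and 12.1 CPM in cra2 satiety roots, a log2 difference of 2.98 ± 0.71 (edgeR adjusted p = 0.013). Its deficit libraries differed widely among themselves. In A17 roots its levels were 71.9, 61.9 and 85.9 CPM under deficit and 82.4, 46.8 and 69.9 CPM under satiety. Another member of shoots, sR44, had its highest root level in the same library, replicate 3 of cra2 deficit, with 16.6 CPM against 5.98 CPM or less in the other 11 root libraries. In that library the shoot members sR78, sR38, sR6, sR39 and sR5 had 0, 0.828, 67.9, 14.9 and 96.0 CPM. Among the 3 cra2 deficit root libraries sR38, sR6 and sR39 were highest there and sR5 was lowest. The cause was not tested.

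sR73, sR81 and sR79 were higher under deficit in cra2 roots by 2.10 ± 0.49, 1.75 ± 0.53 and 1.58 ± 0.49 on the log2 scale. The edgeR adjusted p of sR81 and sR79 were 0.018 and 0.020, while sR73 passed the minimum count only through cra2 deficit roots. Levels of these members were low, at 2.75 to 5.18 CPM on average under satiety. sR5 was higher by 1.11 ± 0.28, and its levels under deficit lay below those of every A17 root library. sR76, sR13 and sR25 were lower under deficit in cra2 roots, by -1.37 ± 0.40, -0.94 ± 0.20 and -0.83 ± 0.26. In A17 roots sR46, sR10 and sR56 were higher under deficit, by 0.98 ± 0.32, 0.92 ± 0.28 and 0.88 ± 0.30. sR41, sR30 and sR16 were lower there, by -1.18 ± 0.36, -0.80 ± 0.25 and -0.79 ± 0.22. In cra2 roots the calls of sR14 and sR13 held in all 6 fits without 1 library each, that of sR5 in 5 and that of sR79 in 4. Those of sR81 and sR76 held in 3 and that of sR25 in 1, and sR25 held in 6 of 9 alternatives. In A17 roots those of sR46, sR41 and sR16 held in 3 of 6, that of sR10 in 2, and those of sR30 and sR56 in 1.

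No member passed the test of a difference in root response between the genotypes (cra2 minus A17). The edgeR test called 0 of 78 members and 0% of all sequences in either direction, with 9 members and 12.5% of all sequences at an unadjusted p under 0.05, and DESeq2 also called 0. The smallest p were those of sR17 (log2 0.91 ± 0.28), sR16 (0.85 ± 0.31) and sR14 (2.84 ± 0.95), all at an edgeR adjusted p of 0.376. A call in 1 genotype alone is therefore not shown to be a difference between them. Without replicate 2 of cra2 deficit roots 1 member was called.

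In shoots neither genotype gave a call for nitrogen. In A17 shoots the edgeR test called 0 of 84 members and 0% of all 189 sequences in each direction, while 30 members and 32.8% of all sequences had an unadjusted p under 0.05. DESeq2 called 10 members, 5 higher and 5 lower, and 15.9% of all sequences. In 42 of the 84 members the deficit and satiety libraries did not overlap, and in 47.6% of all sequences. The fit shares its spread with the 3 cra2 deficit shoot libraries. Without them 26 members were called, 13 higher and 13 lower, and 35.9% of all sequences tested. With only the 6 A17 libraries in the fit 30 were called, 8 higher and 22 lower, and 40% of all sequences tested.

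The 3 members with the smallest p in A17 shoots were all lower under deficit. sR53 had 4.45, 3.74 and 3.34 CPM under deficit and 22.4, 20.1 and 7.20 CPM under satiety, a log2 difference of -2.09 ± 0.50 (edgeR adjusted p = 0.0525). sR49 had 15.9, 10.9 and 9.12 CPM under deficit and 30.5, 29.3 and 23.6 CPM under satiety (log2 -1.21 ± 0.31, edgeR adjusted p = 0.0525). sR7 had 762, 717 and 613 CPM under deficit and 1276, 1117 and 1197 CPM under satiety (log2 -0.78 ± 0.22, edgeR adjusted p = 0.0576). Over the alternatives their adjusted p ran from 0.00011 to 0.086, from 0.0010 to 0.099 and from 0.0026 to 0.17, in that order.

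Among the members called without the cra2 deficit shoots were 4 that were lower under deficit in roots of both genotypes. sR1, sR4, sR15 and sR29 were higher in A17 shoots there, by 0.92, 0.68, 0.98 and 1.94 on the log2 scale (edgeR adjusted p = 0.0056, 0.015, 0.0022 and 0.042). That fit was added after seeing the data. The main fit called none of them, with edgeR adjusted p of 0.14, 0.19, 0.058 and 0.14. sR1 had 3780, 7241 and 8101 CPM under deficit and 3162, 3828 and 3836 CPM under satiety in A17 shoots, with 1 deficit library inside the range of satiety. sR15 had 394.7, 466 and 438 CPM under deficit and 208, 242 and 255 CPM under satiety, without overlap. sR40, which was higher under deficit in roots, was lower in A17 shoots by -1.38 (edgeR adjusted p = 0.0022), with 25.8, 16.3 and 13.7 CPM under deficit and 66.7, 46.0 and 44.1 CPM under satiety. sR6, the shoot member, was higher by 1.11 (edgeR adjusted p = 0.0013), with 2354, 3324 and 2340 CPM under deficit and 1151, 1177 and 1648 CPM under satiety. sR5 and sR34 were lower by -0.84 and -1.18 (edgeR adjusted p = 0.0084 and 0.0048). In the main fit sR40, sR6, sR5 and sR34 had edgeR adjusted p of 0.082, 0.082, 0.082 and 0.14, without a call. Whether the response of these members differs between shoot and root was not tested.

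In cra2 shoots 0 of 84 members and 0% of all sequences were called by edgeR, DESeq2 called 0 as well, and 4 members and 6.35% of all sequences had an unadjusted p under 0.05. The deficit libraries stood apart from one another. sR44 had 32.9, 38.2 and 4.92 CPM under deficit and 72.5, 71.3 and 96.1 CPM under satiety, a log2 difference of -1.65 ± 0.52 (edgeR adjusted p = 0.537). sR13 was at -0.59 ± 0.24 and sR20 at 0.94 ± 0.39, both at an edgeR adjusted p of 0.572. Without replicate 3 of cra2 deficit 2 members were called.

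**Figure D5:**
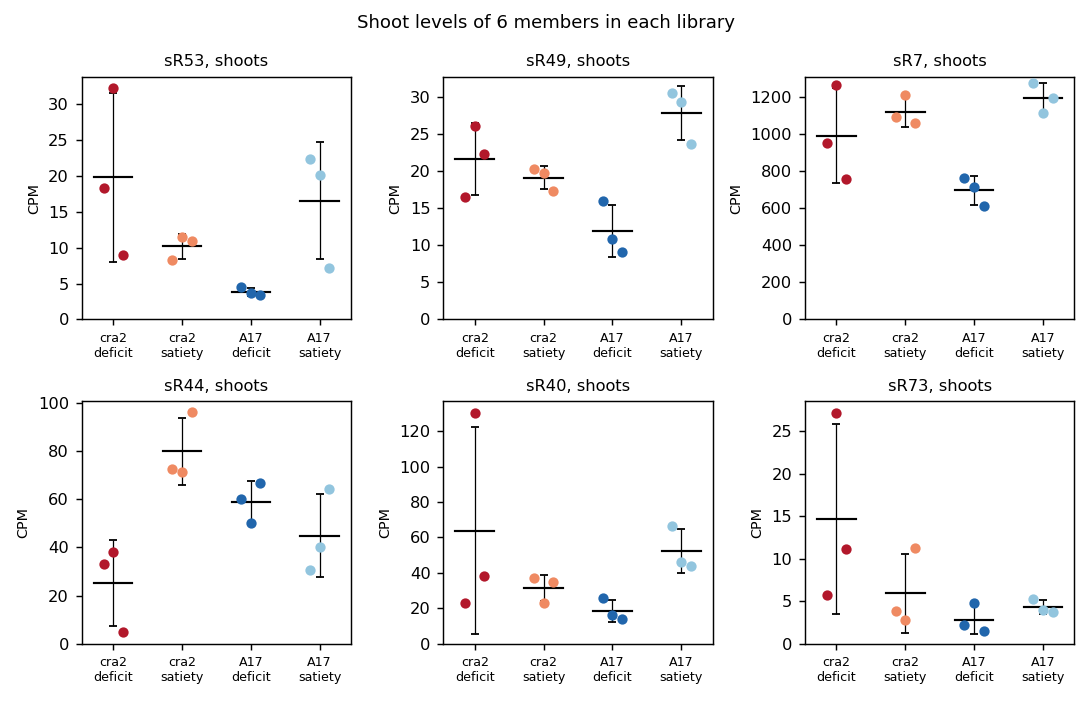
Shoot levels (CPM, linear axes from 0) of sR53, sR49, sR7, sR44, sR40 and sR73 per library, with mean (bar) and SD (whiskers, n = 3). For sR53, sR40 and sR73 the cra2 deficit libraries spread widely, with replicate 2 highest, while A17 deficit libraries lie close together.

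The test of a difference in shoot response between genotypes called 0 of 84 members and 0% of all sequences in either direction by edgeR, with 26 members and 27% of all sequences at an unadjusted p under 0.05. DESeq2 called 10, 6 higher and 4 lower, and 12.7% of all sequences. The smallest p were those of sR53 (log2 3.06 ± 0.68, cra2 minus A17), sR78 (2.07 ± 0.53) and sR40 (2.50 ± 0.75), at edgeR adjusted p of 0.0698, 0.0698 and 0.0976. With library totals 5 members were called, all higher. Without replicate 3 of cra2 deficit 22 were called, without its replicate 1, 5 were called, and without replicate 3 of A17 satiety 1 was called.

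Between genotypes 1 member was called in shoots under satiety. sR60 had 10.8, 15.8 and 17.3 CPM in cra2 shoots and 4.05, 1.24 and 5.18 CPM in A17 shoots, a log2 difference of 2.04 ± 0.49 (edgeR adjusted p = 0.023). Of all 189 sequences 1.06% were higher and 5.82% lower. The call held in all 10 alternatives but in none of the 6 fits without 1 library. Without the cra2 deficit shoot libraries 10 members were called, 5 higher (sR6, sR8, sR25, sR44 and sR60) and 5 lower (sR5, sR12, sR17, sR18 and sR34), against 17.1% of all sequences tested in that fit.

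Under deficit 7 of 84 members were higher and 3 lower in cra2 shoots than in A17 shoots, where 7.41% and 5.82% of all sequences were. sR73, sR53, sR71, sR80, sR78 and sR24 were higher without overlap of the libraries, by 2.36 ± 0.64, 2.36 ± 0.50, 2.19 ± 0.65, 2.17 ± 0.48, 1.95 ± 0.39 and 1.15 ± 0.35 on the log2 scale (edgeR adjusted p = 0.0091 to 0.045). sR78, counted only in shoots, had 14.1, 15.4 and 6.70 CPM in cra2 shoots and 2.23, 4.42 and 2.74 CPM in A17 shoots. In A17 deficit shoots sR80, sR71 and sR73 averaged 1.40, 2.43 and 2.84 CPM. That is at or just above the level of 3 counts in shoots (0.765 to 2.01 CPM), so the size of these changes is poorly resolved. sR40, whose libraries overlapped, was the 7th. Without 1 library each, the call of sR78 held in all 6 fits, that of sR53 in 5, that of sR80 in 4, those of sR73 and sR71 in 3, and those of sR24 and sR40 in 2. Those of sR24 and sR40 held in 6 and 7 of 9 alternatives.

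Lower in cra2 deficit shoots were sR39, sR42 and sR19, by -1.63 ± 0.37, -1.40 ± 0.38 and -0.80 ± 0.24. sR39 had 22.5, 30.4 and 68.8 CPM in cra2 shoots and 138.0, 137.4 and 99.7 CPM in A17 shoots. The call of sR39 held without each of 6 libraries and that of sR42 without 3 of them. That of sR19 held without 2 of the 6 and in 4 of 9 alternatives, with adjusted p of 0.0093 to 0.61. sR42 was also lower in cra2 roots under both nitrogen conditions, as given above. Library totals gave 25 higher and 1 lower, and the share over all sequences under that scaling is not given here. The count was 27 without replicate 3 of cra2 deficit and 4 without its replicate 2, and 6, 5 and 2 without replicates 1, 2 and 3 of A17 deficit.

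Across duplexes the strand with more counts was the same in all 24 libraries for 7 of the 8 pairs. sR5 held 96.1% of its pair's counts in shoots and 94.5% in roots, and sR18 held 98.8% in shoots and 99.1% in roots. The pair sR25 and sR27 was the most even, with sR25 at 60.6% in shoots and 53.6% in roots and ahead in 21 of 24 libraries. The strands of sR11 and sR29 ranged most among the abundant pairs, with sR11 at 60.9 to 96.4% of the pair over the libraries.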

How the data were processed

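Per the labels' protocols, a NEXTFLEX kit for small RNA was used, and per the submitters' processing notes reads went through cutadapt. The sources used here do not give its version, the aligner or where the listed sequences come from. The deposited files hold the authors' raw counts per sequence, which were used unchanged. The 24 conserved sequences of 23 families that set the members apart were textbook sequences, chosen with the files already seen. The members and lists were chosen with earlier results of these data known. A family match allowed 3 mismatches over at least 18 nt, and an opposite arm a 2-nt overhang, at most 3 mismatches and at least 15 paired positions. No miRNA reference table was used here, so members carry no miRNA names and planned groups that needed one were not formed. Results of 1 member are not reported here beyond the counts.

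Tests used the quasi-likelihood method of edgeR 4.0.16 (glmQLFit robust, glmQLFTest, R 4.3.3) on TMM-scaled counts. Sequences passing filterByExpr by group, at a minimum count of 10, were adjusted together by Benjamini-Hochberg and called under 0.05. Roots and shoots (12 libraries each) were fitted apart, and organ contrasts used all 24. The filter left 78, 84 and 91 of the 96 members in roots, shoots and all libraries. Members that pass only through a group where they are high had to differ. CPM come from the fit of that organ, or of all libraries in organ contrasts. The ± after a log2 change is the SE, after a level the SD. Named are the 6 most abundant members of each organ, up to 6 called members per direction and comparison with the largest change and no overlap of libraries (overlap allowed for differences of responses), otherwise the 3 smallest p, and all duplex pairs. Others called were named after their values were seen. Deviations of equally numbered A17 deficit and satiety roots correlated at 0.209, 0.136 and 0.349. Of 36 such correlations over all pairs of groups within an organ 14 exceeded 0.1, with a median of -0.0067. A pairing within an organ is thus not shown. Correlations between root and shoot libraries of equal number were not computed, so a pairing across organs was not examined. The labels state none, and the main test used none. A replicate block left all 19 calls of A17 deficit against satiety roots in place. The method was tested on simulated data with the same spread in every group, unlike the wider spread of the cra2 deficit shoots. The outcome of that test is not used as support here. Alternatives were scaling by RLE, by library totals or by the upper quartile, DESeq2 1.42.0, other filters, a replicate block, fewer libraries, and identical profiles entered once. Leaving out the 3 cra2 deficit shoot libraries was added after seeing the data.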

Additional observations from a re-analysis of the deposited data

Results flagged for a closer look

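For 7 members the shoot-over-root contrast differed between cra2 and A17 by its own test. Among them the log2 difference (cra2 minus A17) was 2.86 for sR32, 2.53 for sR5 and 1.93 for sR34, and -1.95 for sR72, -0.90 for sR19 and -0.87 for sR26. sR32 averaged 95.6 ± 20.96 CPM in cra2 shoots and 121.7 ± 22.0 CPM in A17 shoots, and 9.44 ± 4.86 CPM in cra2 roots and 88.7 ± 25.9 CPM in A17 roots (SD, n = 6 each). sR72 averaged 2.82 ± 1.80 CPM in cra2 shoots and 5.26 ± 2.99 CPM in A17 shoots, and 18.1 ± 5.42 CPM in cra2 roots and 8.17 ± 6.19 CPM in A17 roots. The call of sR72 held in 7 of 8 alternatives and in 14 of 24 fits without 1 library.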

How the results depend on the processing

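Over the 12 comparisons there were 156 calls of members. Of 1323 values of these under alternatives other than leaving out 1 library 1198 stayed past the threshold in the same direction, and of 2232 values without 1 library 1988 did. With library totals 6 members higher in shoots than in roots changed sign, to log2 values of -0.0266 (sR25), -0.2667 (sR13), -0.274 (sR50), -0.3558 (sR58), -0.42 (sR27) and -0.2063 (sR22). No other value of a called or named member changed sign. Changes of at most 1.5 times in a count are not listed. Where counts under alternatives stand without the share over all sequences, they are not shown to be particular to the members.

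With library totals the members called were 11 in A17 roots for nitrogen, 8 for cra2 against A17 roots under satiety, 26 for shoots under deficit, 5 for the difference of shoot responses and 3 for the difference of organ contrasts. That scaling also moved the median log2 of all sequences furthest, to -0.78 for shoot over root (TMM -0.05) and 0.74 for the difference of shoot responses (TMM 0.16). In A17 shoots for nitrogen RLE gave 2, DESeq2 10, no filter 1, at least 10 CPM in 3 libraries 3, only the compared libraries 30, and leaving out the cra2 deficit shoots 26. The cause was not tested. In shoots between genotypes, fits with only the compared libraries gave 9 under satiety and 3 under deficit, and leaving out the cra2 deficit shoots gave 10 under satiety. For the difference of shoot responses DESeq2 gave 10 and no filter 1. For the difference of organ contrasts upper-quartile scaling gave 15 and DESeq2 14. Fits limited to the compared libraries equal the main fit for differences of responses and organ contrasts.

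Without 1 library each, the counts ran from 2 to 17 (A17 roots, nitrogen), 8 to 22 (cra2 roots, nitrogen), 0 to 1 (A17 shoots), 0 to 2 (cra2 shoots), 10 to 17 and 11 to 19 (genotypes in roots, satiety and deficit), 0 to 0 and 2 to 27 (genotypes in shoots), 0 to 1 and 0 to 22 (differences of response, roots and shoots), 62 to 67 (organs) and 4 to 11 (difference of organ contrasts).

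The rule gave 103 members at 50 counts, 81 at 200, and 96 with more than 2 or more than 4 mismatches. The share of counts in roots was 2.61% without sR1.

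Besides A17 deficit with A17 satiety roots there are 11 pairs of groups within an organ. In these the correlation of equally numbered libraries ran from -0.386 to 0.344 and was in no pair of groups above 0.1 for all 3 numbers. With a replicate block the members called were 20 and 19 for nitrogen in A17 and cra2 roots, 0 and 0 in shoots, 14 and 23 between genotypes in roots, 1 and 7 in shoots, 0 and 0 for differences of response, 65 between organs and 7 for their difference.

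At these depths 3 counts are 0.765 to 2.01 CPM in shoots and 1.81 to 3.90 CPM in roots, so changes of members near that level are not resolved.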

Other observations

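sR77, a member left out of the root test by its low counts, stood apart in 1 library. It had 175.9 CPM in replicate 3 of cra2 satiety roots and 0.815 to 11.6 CPM in the other 11 root libraries. sR6, which differs from sR77 by 3 mismatches, was also highest in that library, with 233.7 CPM against 26.3 to 117.2 CPM in the other root libraries. The shoot members sR38 and sR78 had 1.34 and 0 CPM there. The cause was not tested.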
